A study of Homo sapiens with 6 samples.

Results

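The ERBB, insulin and IGF receptor genes examined here are 10 of the 19775 genes that the arrays measured by a probe set of their own: EGFR, ERBB2, ERBB3 and ERBB4, the feedback inhibitor ERRFI1, the receptors INSR and IGF1R, the substrates IRS1 and IRS2, and the binding protein IGFBP3. Every probe set annotated to one of them alone was taken, which gave 39 of the 54675 probe sets on the array, and 0 further probe sets were annotated to a member together with another gene. Cells of LNCaP, an established human prostate cancer line, received small interfering RNA (siRNA) against the non-coding RNA PCARNEQ, or siRNA against EGFP as the control. EGFP is a fluorescent protein with no gene in human cells. Total RNA of each group was measured on 3 Affymetrix arrays, called arrays 1 to 3 of siPCARNEQ and of siEGFP. The labels give no siRNA dose, no time after treatment and no separate cultures, so p-values reflect how far arrays of a group varied, and that variation may be technical. Both groups were the same line, so the values describe 1 cell line in culture, and 0 probe sets were annotated to PCARNEQ, so its own level was not analysed here.

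The ERBB receptors are membrane tyrosine kinases that pair with each other when a ligand such as EGF, TGFA or a neuregulin binds. ERBB2 has no known ligand of its own and ERBB3 has little kinase activity, so the pair signals as a heterodimer, with ERBB3 recruiting phosphoinositide 3-kinase. INSR and IGF1R pass the insulin and IGF signals to IRS1 and IRS2, which dock the same kinase, while IGFBP3 binds IGFs outside the cell. Both receptor systems support growth and survival of prostate cancer cells and are known to interact with androgen signalling.

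Probe sets of ERBB2, INSR and IRS2 were higher in siPCARNEQ cells and probe sets of ERBB3 were lower. For INSR these were 2 of 5, without the brightest, and the siEGFP arrays of 1 of them lay below the array median. Of the 39 probe sets, 6 rose, 2 fell and 31 did not pass (limma, Benjamini-Hochberg adjusted p below 0.05 over 54613 probe sets). The sizes of the called changes ran from 0.40 to 0.91 on the log2 scale, the smallest being that of an ERBB2 probe set below the array median on all 6 arrays. The share called was 20.5%, against 18.5% of all probe sets, 9.92% having risen and 8.61% fallen, so the number of calls did not set the group apart from the array. Among probe sets above the array median of 7.03 (log2 intensity) on all 6 arrays, 6 of 25 members passed (24%), against 31.1% of all such probe sets. Among those below it on all 6 arrays, 1 of 9 members passed, against 4.39%. The groups did not overlap in 12 of the 39 (30.8%), against 37.7% of all probe sets. The median change of the 39 was -0.03 and that of all probe sets -0.01. Bulk RNA cannot tell fewer cells with a transcript from less of it per cell.

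**Figure D1:**
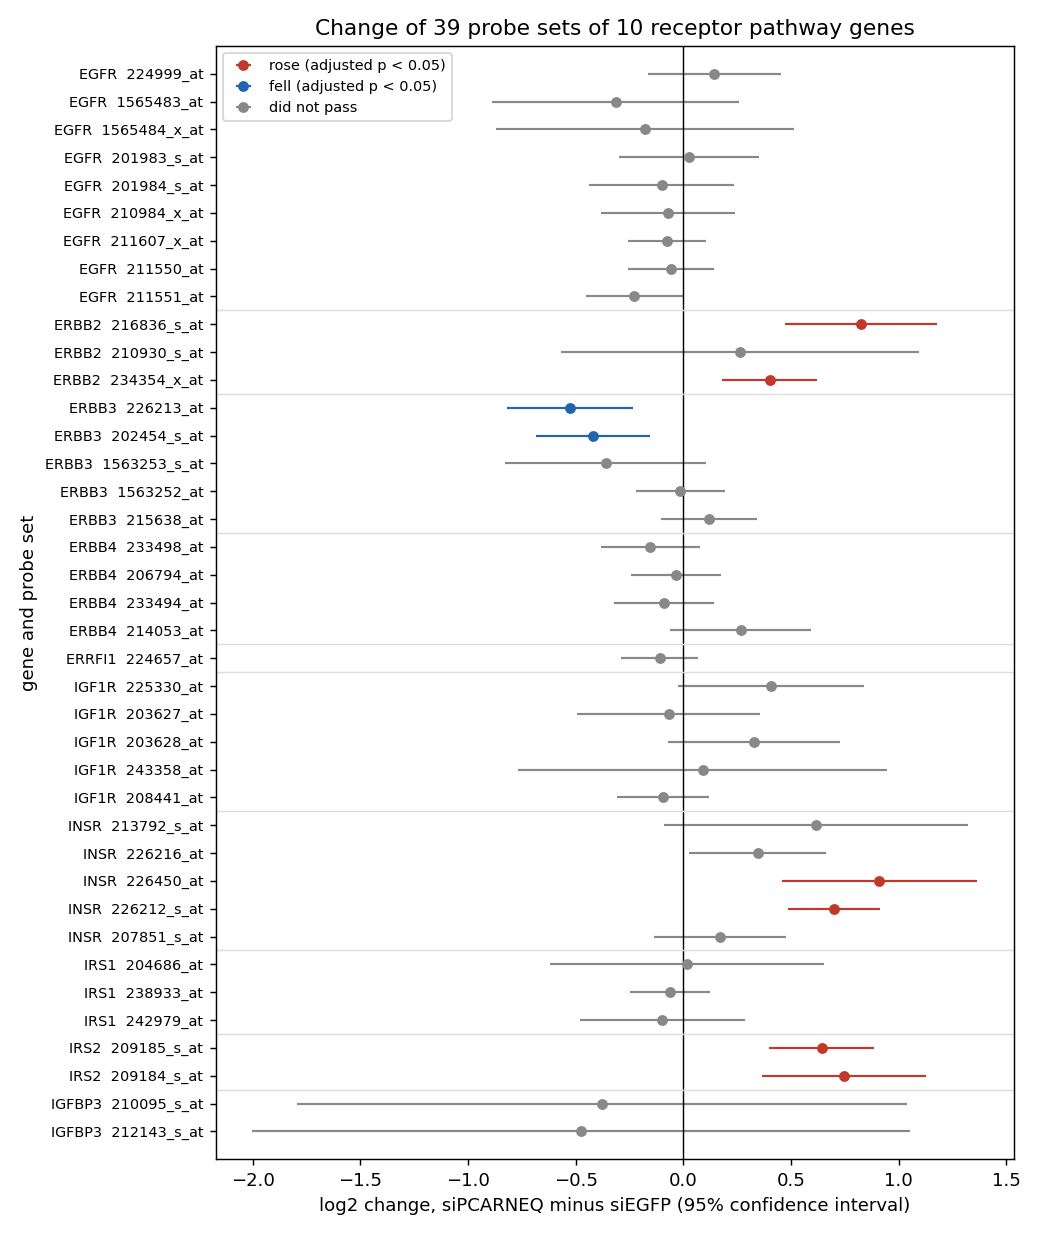
Log2 change (siPCARNEQ minus siEGFP, horizontal axis) of the 39 probe sets of the 10 genes, with the 95% confidence interval from limma (n = 3 arrays per group). Both IRS2 probe sets, 2 of 5 for INSR and 2 of 3 for ERBB2 lie above 0 and passed, 2 of 5 for ERBB3 lie below 0 and passed, and the intervals of IGFBP3 are the widest.

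Array 1 stood apart from arrays 2 and 3 in both groups, which bears on several members. For siPCARNEQ, log2 differences between arrays 2 and 3 had an SD of 0.136 over probe sets, and those of array 1 with either had 0.371 to 0.373. For siEGFP the corresponding SDs were 0.129 and 0.232 to 0.239. The actin control signal, which is read at both ends of ACTB to gauge RNA integrity, was higher at the 3' than at the 5' end by 1.84 on siPCARNEQ array 1 and by 0.63 to 0.78 on the other 5 arrays (log2). Values are therefore given for array 1 and for arrays 2 and 3 separately where they differ, and the part of RNA integrity in them was not tested. A limma fit of arrays 2 and 3 alone called 17104 of 54613 probe sets, against 10122 on all 6 arrays. Its p-values reflect the small spread between those 2 arrays of a group, which may be technical. Of the luminal prostate markers, 7 of 9 were measured, all 7 above the array median, with a summed intensity of 59250 to 61174 in siPCARNEQ and 37640 to 41328 in siEGFP. Of these 7, 5 rose and 0 fell (by limma, 0 also at an unadjusted p below 0.05). That is 71.4% called, against 27.5% of all genes and 31.1% of probe sets above the array median on all 6 arrays. Fibroblast and smooth muscle markers (8 of 8 measured) summed to 2554 to 3045 in siPCARNEQ and 1798 to 1863 in siEGFP. Of these 8, COL1A1 and LUM rose, ACTA2 fell and 5 did not pass (37.5% called), with a median change of -0.02. COL1A1, the brightest, read 10.62 to 11.03 against 9.59 to 9.73 (log2 intensity) and weighs most in the sum. The sum therefore does not describe these markers as a set. The siEGFP values of LUM, 5.51 to 6.11, lay below the array median, where no signal above background was shown. The part of the luminal, fibroblast and smooth muscle markers in the results was not tested. Basal, neuroendocrine, and immune and endothelial markers had group ranges of the sum that overlapped, at 752 or less. The basal keratin KRT14 passed with a log2 difference of 1.02. It lay at 5.16 to 6.42 on all 6 arrays, below the array median, so 1.02 cannot be read as the size of a change.

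The stretches upstream of the annotated gene starts of ERBB2, INSR and IRS2, the 3 members with called rises, are printed to compare their letters. The array gives only transcript levels. Which start sites LNCaP cells use was not examined, so these stretches need not be the promoters in use. Each is the 250 bases before the RefSeq gene start in GRCh38.p14, 5' to 3' on the gene's strand, at chr17:39687844-39688093 (plus strand) for ERBB2, chr19:7294415-7294664 (minus) for INSR and chr13:109786584-109786833 (minus) for IRS2. Capitals mark GC boxes (GGGCGG or its reverse complement CCGCCC, bound by SP1) and CCAAT boxes (CCAAT or ATTGG, bound by NF-Y), and GC boxes may overlap one another.
ERBB2: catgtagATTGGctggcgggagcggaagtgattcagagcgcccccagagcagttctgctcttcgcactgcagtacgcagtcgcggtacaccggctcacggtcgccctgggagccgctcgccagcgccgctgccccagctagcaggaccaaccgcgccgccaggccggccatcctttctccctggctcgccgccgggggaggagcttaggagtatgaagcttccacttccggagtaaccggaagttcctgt
INSR: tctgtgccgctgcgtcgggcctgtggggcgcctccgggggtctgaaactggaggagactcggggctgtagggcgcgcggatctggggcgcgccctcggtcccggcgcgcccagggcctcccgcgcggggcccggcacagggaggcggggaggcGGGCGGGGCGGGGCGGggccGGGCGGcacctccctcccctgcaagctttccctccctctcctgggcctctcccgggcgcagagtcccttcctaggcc
IRS2: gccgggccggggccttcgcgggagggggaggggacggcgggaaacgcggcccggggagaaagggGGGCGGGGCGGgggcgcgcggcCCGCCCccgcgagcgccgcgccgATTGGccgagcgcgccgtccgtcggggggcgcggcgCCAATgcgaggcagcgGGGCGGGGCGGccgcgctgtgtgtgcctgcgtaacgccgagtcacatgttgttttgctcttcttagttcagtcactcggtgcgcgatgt
The INSR stretch held 4 GC boxes and 0 CCAAT boxes, the IRS2 stretch 5 and 2, and the ERBB2 stretch 0 and 1. Of all 35116 such stretches, 42.6% held a GC box and 32% a CCAAT box. Their base composition was 78.4% G and C for INSR, 76.4% for IRS2 and 65.6% for ERBB2, against a median of 58% over all stretches. The members without a called change were GC-rich too, with 81.2% for IGF1R, 80.8% for IRS1, 76% for IGFBP3, 75.2% for ERRFI1 and 73.6% for the first of the EGFR stretches, while ERBB4 had 57.2% and the second EGFR stretch 38.8%. The IRS1 stretch held 4 GC boxes. The FOXO motif GTAAACA (or TGTTTAC) occurred in 0 of the 10 member stretches and in 2.98% of all stretches. A match describes the letters of these windows only. The table held stretches for 9 of the 10 genes, not for ERBB3.

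ERBB2, the ligandless partner of the family, had the clearest change among the ERBB receptors. Its brightest probe set, 216836_s_at, read 11.10, 10.58 and 10.70 on the siPCARNEQ arrays and 10.14, 9.88 and 9.90 on the siEGFP arrays (log2 intensity, arrays 1 to 3). Every siPCARNEQ array lay above every siEGFP array. The mean was 10.80 ± 0.27 against 9.97 ± 0.14 (SD, n = 3), a rise of 0.82 (SE 0.15), or 1.77-fold, with a limma adjusted p of 0.00949. The difference was 0.97 in array 1 and 0.75 in arrays 2 and 3. Probe set 234354_x_at lay at 5.46 to 6.10 on all 6 arrays, below the array median, where no signal above background was shown. It passed as well, with a log2 difference of 0.40 (SE 0.09, adjusted p = 0.0254) that cannot be read as the size of a change in ERBB2. The remaining one, 210930_s_at, read 7.06, 8.12 and 8.23 in siPCARNEQ and 7.00, 7.76 and 7.85 in siEGFP. Array 1 was the lowest in each group and the groups overlapped, and the change of 0.26 (95% interval -0.57 to 1.10) did not pass (adjusted p = 0.679), while arrays 2 and 3 alone gave 0.37 (adjusted p = 0.013). With arrays 2 and 3 of each group averaged and counted as 1 replicate, 216836_s_at no longer passed over probe sets (0.86, adjusted p = 0.0909). The call of 234354_x_at was lost under this averaging too (limma adjusted p = 0.134). It was also lost without siPCARNEQ array 3 (adjusted p = 0.0782) or without siEGFP array 1, 2 or 3 (0.0707, 0.0572 and 0.079).

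ERBB3, the partner that recruits phosphoinositide 3-kinase, went the other way. Probe set 226213_at read 10.90, 10.51 and 10.52 in siPCARNEQ and 11.28, 11.12 and 11.11 in siEGFP. All 3 siPCARNEQ arrays were lower than any siEGFP array, and array 1 was the highest of each group. The means were 10.64 ± 0.23 and 11.17 ± 0.10 (SD, n = 3), and the probe set fell by 0.53 on the log2 scale (SE 0.12, limma adjusted p = 0.0268), a 1.44-fold decrease. Probe set 202454_s_at read 10.42, 10.13 and 10.12 against 10.79, 10.57 and 10.57, again without overlap. It fell by 0.42 (SE 0.11, limma adjusted p = 0.0421). The difference for 226213_at was -0.38 in array 1 and -0.60 in arrays 2 and 3, and for 202454_s_at it was -0.38 and -0.44. Another bright probe set, 1563253_s_at, had a change of -0.36 that did not pass (adjusted p = 0.28) and passed with the replicate number as a block (adjusted p = 0.0338). The other ERBB3 probe sets, 1563252_at and 215638_at, lay below the array median on all 6 arrays and had changes of -0.01 and 0.12. Both ERBB3 calls held without siPCARNEQ array 1, while leaving out siPCARNEQ array 2 or 3 or any siEGFP array gave adjusted p from 0.0757 to 0.0917 for 226213_at and from 0.0947 to 0.126 for 202454_s_at, with changes of -0.34 to -0.56. With arrays 2 and 3 averaged, adjusted p was 0.203 and 0.237.

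EGFR, the receptor for EGF and TGFA, had 9 probe sets and none of them passed, with 1 at an unadjusted p below 0.05 in limma. The brightest, 224999_at, read 9.83, 9.37 and 9.40 in siPCARNEQ and 9.38, 9.43 and 9.35 in siEGFP. Only siPCARNEQ array 1 stood out, and the change of 0.14 had a 95% interval of -0.16 to 0.45 (adjusted p = 0.527). Over the 9 probe sets the changes ran from -0.32 to 0.14. The probe sets 1565483_at and 1565484_x_at had array 1 higher than arrays 2 and 3, by 0.48 and 0.65 in siPCARNEQ and by 0.74 and 0.91 in siEGFP. Only 211551_at kept its groups apart, at 6.60 to 6.78 against 6.80 to 7.06, with a change of -0.23 (limma adjusted p = 0.165). It passed in arrays 2 and 3 alone (-0.24, adjusted p = 0.0311). This probe set lay above the array median on only 1 of the 6 arrays, so -0.23 cannot be read as the size of a change in EGFR.

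ERBB4, a neuregulin receptor, lay at 4.82 to 6.10 in its 4 probe sets on all 6 arrays, below the array median throughout. Its changes, from -0.15 to 0.27, did not pass, and 0 had an unadjusted p below 0.05 in limma. ERRFI1, which binds ERBB kinase domains and blocks them, had a single, bright probe set (224657_at). It read 11.64, 11.73 and 11.72 in siPCARNEQ and 11.90, 11.76 and 11.76 in siEGFP. The groups did not overlap, but arrays 2 and 3 differed by only -0.03, and the change of -0.11 (95% interval -0.29 to 0.07) did not pass (limma adjusted p = 0.399).

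**Figure D2:**
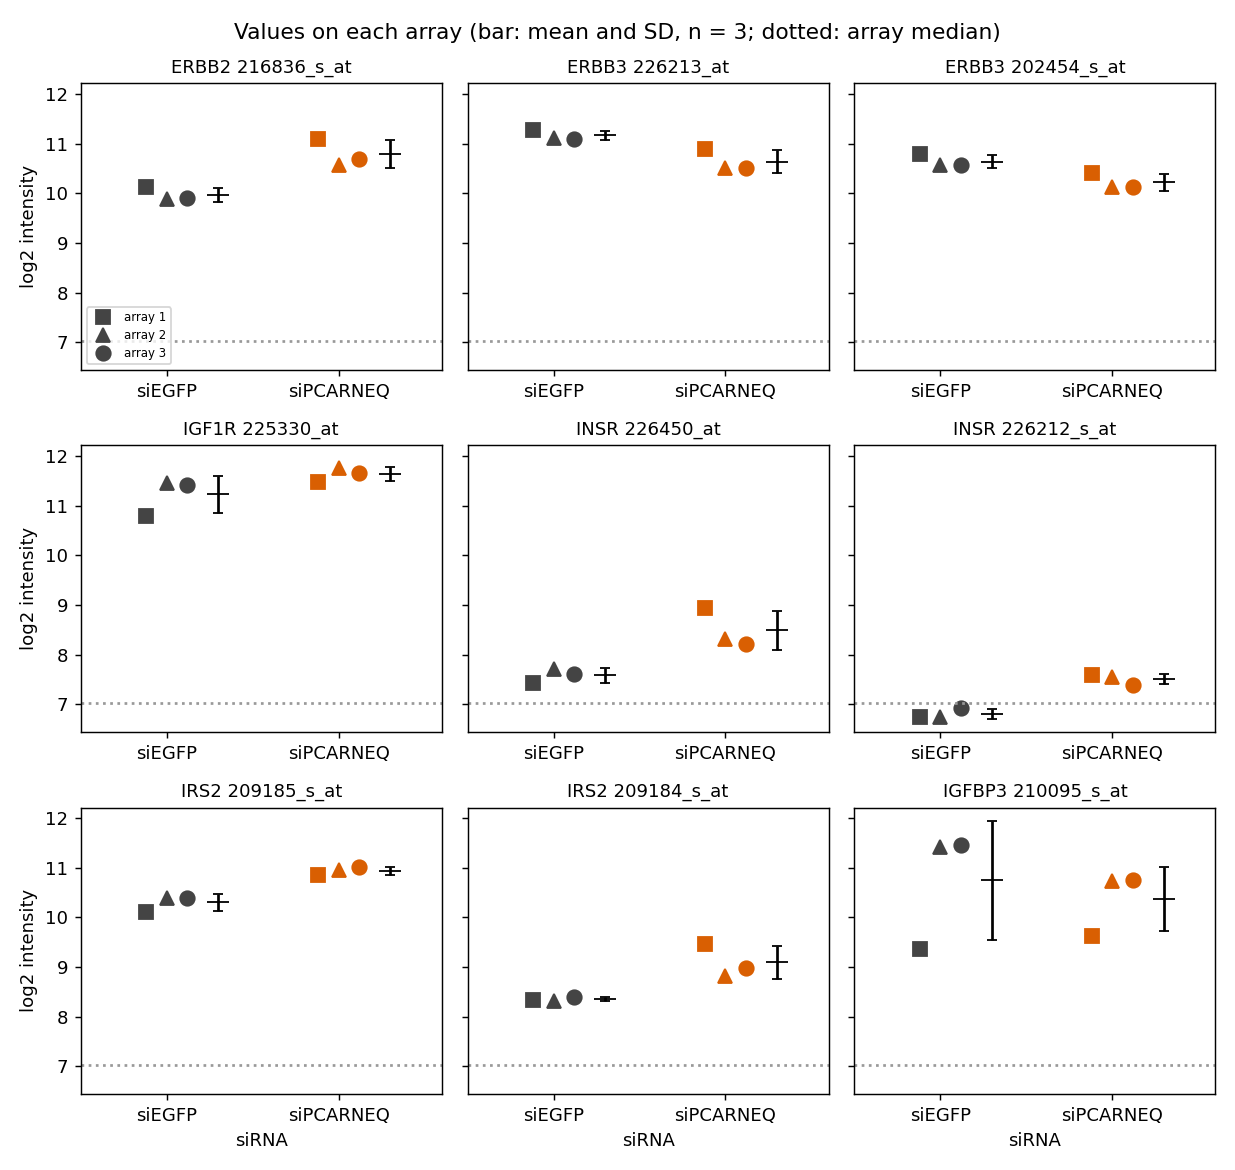
Log2 intensity (vertical axis) of 9 member probe sets on each of the 6 arrays, with array 1 as a square, array 2 as a triangle and array 3 as a circle, the mean and SD beside them (n = 3) and the array median of 7.03 dotted. ERBB2, INSR, IRS2 and IGF1R panels have every siPCARNEQ array above every siEGFP array, ERBB3 has the reverse, and IGFBP3 splits array 1 from arrays 2 and 3 in both groups.

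INSR, the insulin receptor, rose in 2 of its 5 probe sets, and the other 3 had positive changes that did not pass. Probe set 226212_s_at read 7.58, 7.54 and 7.39 in siPCARNEQ and 6.75, 6.74 and 6.93 in siEGFP. The siPCARNEQ arrays were all above the array median and the siEGFP arrays all below it, where no signal above background was shown. The log2 difference was 0.70 (SE 0.09, limma adjusted p = 0.00244), and no fold is given against those siEGFP values. It passed with each array left out, with arrays 2 and 3 averaged or alone and in the blocked fit, with adjusted p of at most 0.0424, while it met the filter on dim probe sets only through siPCARNEQ. Probe set 226450_at read 8.94, 8.31 and 8.22 against 7.42, 7.70 and 7.61. It had the largest change of the 39, at 0.91 (SE 0.19), or 1.88-fold, with a limma adjusted p of 0.0174, and the difference was 1.52 in array 1 and 0.61 in arrays 2 and 3. Without siEGFP array 1, 2 or 3 its adjusted p was 0.0688, 0.0518 and 0.0636, and 0.096 with arrays 2 and 3 averaged.

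The brightest INSR probe set, 213792_s_at, read 10.36, 9.31 and 9.26 in siPCARNEQ and 9.27, 9.05 and 8.76 in siEGFP. Here siPCARNEQ array 1 was far above the rest, the groups overlapped, and the change of 0.62 (SE 0.30) did not pass (limma adjusted p = 0.223). It passed in arrays 2 and 3 alone (0.38, adjusted p = 0.0481). At gene level, where the brightest probe set stands for the gene and p is adjusted over 19775 genes, INSR did not pass (adjusted p = 0.176), but it did with the replicate number as a block (adjusted p = 0.0303) and as the mean of its probe sets (0.55, adjusted p = 0.027). Probe sets 226216_at and 207851_s_at had changes of 0.34 (adjusted p = 0.136) and 0.17 (adjusted p = 0.445).

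IGF1R, the receptor for IGF1 and IGF2, had 5 probe sets and none passed, with 0 at an unadjusted p below 0.05 in limma. The brightest, 225330_at, read 11.49, 11.77 and 11.66 in siPCARNEQ and 10.81, 11.46 and 11.43 in siEGFP. The groups did not overlap, and siEGFP array 1 was well below the other 5. The change was 0.41 (SE 0.18, 95% interval -0.02 to 0.84, limma adjusted p = 0.189), with 0.68 in array 1 and 0.27 in arrays 2 and 3. The replicate number as a block brought it past the threshold (adjusted p = 0.049), as did arrays 2 and 3 alone (adjusted p = 0.0269). The next probe sets differed little between the groups in arrays 2 and 3: 203627_at differed there by -0.09 and 203628_at by 0.05, the latter with 0.88 in array 1. The change of 243358_at was 0.09, with array 1 differing from arrays 2 and 3 by -1.21 in siPCARNEQ and -0.73 in siEGFP, and 243358_at passed in arrays 2 and 3 alone (0.25, adjusted p = 0.047). Probe set 208441_at lay below the array median on all arrays.

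IRS2, the substrate that carries insulin and IGF signals in many tissues, rose in both of its probe sets. Probe set 209185_s_at read 10.85, 10.96 and 11.02 in siPCARNEQ and 10.11, 10.39 and 10.40 in siEGFP. The siPCARNEQ arrays were close together and all above the siEGFP arrays. The rise was 0.64 (SE 0.10), or 1.56-fold, with a limma adjusted p of 0.00571 and differences of 0.74 in array 1 and 0.59 in arrays 2 and 3. Probe set 209184_s_at read 9.47, 8.82 and 8.99 against 8.34, 8.31 and 8.39. It rose by 0.75 (SE 0.16, limma adjusted p = 0.0192), with 1.13 in array 1 and 0.55 in arrays 2 and 3. Without siEGFP array 1, 2 or 3 the call of 209184_s_at was lost (adjusted p = 0.0659, 0.0778 and 0.0661), while 209185_s_at was lost only with arrays 2 and 3 averaged (adjusted p = 0.0795).

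IRS1, the closely related substrate whose upstream stretch held as many GC boxes as that of INSR, gave no call. Its brightest probe set, 204686_at, read 7.88, 8.63 and 8.61 in siPCARNEQ and 7.87, 8.57 and 8.64 in siEGFP. Array 1 was the lower in both groups, with differences of -0.74 and -0.73 from arrays 2 and 3, and the change was 0.02 (95% interval -0.62 to 0.65, limma adjusted p = 0.977). Probe sets 238933_at and 242979_at had changes of -0.06 and -0.10, and 0 of the 3 had an unadjusted p below 0.05 in limma. Whether the changes of IRS1 and IRS2 differ was not tested.

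IGFBP3, the main IGF carrier in serum and a secreted inhibitor of IGF action, differed more between arrays of the same group than between the groups. Probe set 210095_s_at read 9.62, 10.73 and 10.77 in siPCARNEQ and 9.36, 11.42 and 11.47 in siEGFP. Array 1 was the lowest of each group, with a difference from arrays 2 and 3 of -1.13 in siPCARNEQ and -2.09 in siEGFP. The second probe set, 212143_s_at, read 8.03, 9.35 and 9.35 against 7.92, 10.14 and 10.09, with differences of -1.32 and -2.19 between array 1 and the others. Of all probe sets on the array, 0.0421% had a difference between array 1 and the others in siEGFP at least as large as that of 210095_s_at, and 1.6% did in siPCARNEQ. Over all 6 arrays the changes were -0.38 (95% interval -1.80 to 1.04, adjusted p = 0.734) and -0.47 (SE 0.65, adjusted p = 0.686), and neither probe set passed in limma. In arrays 2 and 3 alone, the differences were -0.70 and -0.76 (limma adjusted p = 0.000828 and 0.000624). This fit had 2 arrays per group that lay close together, and its p reflects that spread. In array 1 the differences were 0.26 and 0.11, of the other sign, and whether the array sets differ was not tested.

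**Figure D3:**
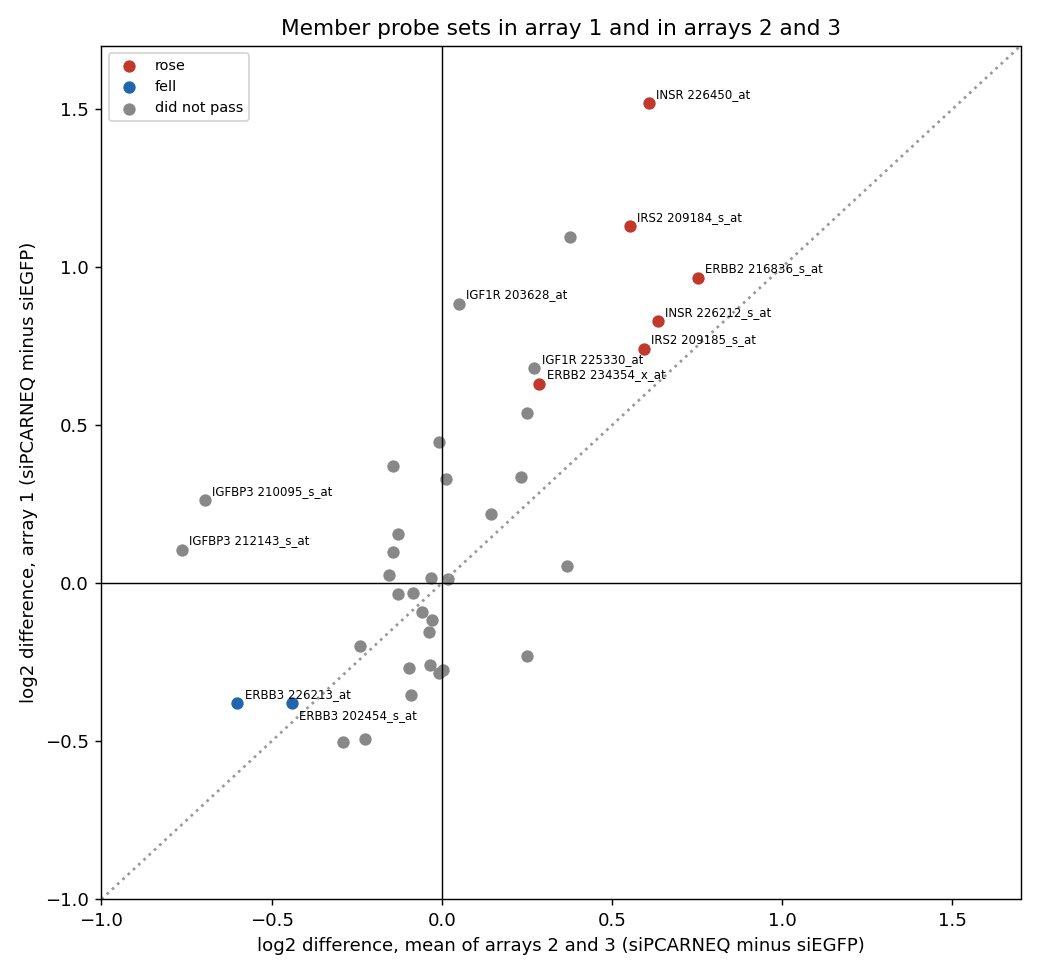
Log2 difference between siPCARNEQ and siEGFP for the 39 probe sets in array 1 (vertical axis, 1 array per group) against the mean of arrays 2 and 3 (horizontal axis), with equal differences on the dotted line. The called probe sets were called on these same arrays, so that sharing a sign on both axes is no separate evidence, and the IGFBP3 probe sets lie at -0.70 and -0.76 on the horizontal axis and at 0.26 and 0.11 on the vertical axis.

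The other genes of these pathways were counted at gene level, by the brightest probe set. Of 133 measured genes on the 8 lists, 30 rose, 12 fell and 91 did not pass, a share of 31.6% called against 27.5% of all 19775 genes (15.2% rose and 12.3% fell). Their median change was 0.05, against -0.01 for all genes. The share called is given for each list beside that of all genes, and no difference between these shares was tested. The shares are not matched for level. On all 6 arrays, 99 of the 133 list genes lay above the array median, against 11749 of all 19775 genes. Over probe sets, 31.1% of those above it on all 6 arrays were called, and 4.39% of those below it. Of the 10 members, 2 rose at gene level (ERBB2 and IRS2) and 1 fell (ERBB3).

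Among ligands of the ERBB receptors, TGFA rose and NRG4 fell, with 7 of 9 not passing (22.2% called). TGFA, a ligand of EGFR, went from 7.48 in siEGFP to 8.71 in siPCARNEQ (log2 intensity), a rise of 1.23 (SE 0.11, limma adjusted p = 0.000272), though 1 of its 3 probe sets passed and the mean of the 3 rose by 0.48. NRG4, a ligand of ERBB4, had a change of -0.35 with a level below the array median on all 6 arrays. Of 10 insulin and IGF ligands, binding proteins and scavenger receptor genes, 1 rose and 0 fell, with 10% called (1 fell at an unadjusted p below 0.05 in limma). That was IGF2R, which takes IGF2 to the lysosome, with a rise of 0.75 (SE 0.15, limma adjusted p = 0.00944) and all 3 of its probe sets called.

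Of 15 adaptors, 6 rose and 1 fell (46.7% called, against 27.5% of all genes), with a median of 0.24. Of the 15, 12 lay above the array median on all 6 arrays. PTPN11, the phosphatase SHP2 that promotes signalling from receptors to RAS, fell by 1.05 (SE 0.06, limma adjusted p = 7.55e-05) as read by the brightest probe set, and 3 of its 6 probe sets fell. The RAS exchange factors SOS2 and SOS1 rose by 0.62 and 0.45, the adaptors NCK2 and GRB2 by 0.53 and 0.30. Averaged over their probe sets, SOS2, SOS1 and GRB2 did not pass (0.22, 0.12 and 0.12, with adjusted p of 0.0505, 0.18 and 0.477).

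Of 26 genes on the list of ubiquitin ligases, phosphatases and other inhibitors of the receptors, 7 rose and 4 fell (42.3% called, against 27.5%). The list also holds the adaptor GRB7 and the deubiquitinase USP8, which did not pass. Of the 26, 23 lay above the array median on all 6 arrays. LRIG1, a membrane protein that promotes degradation of ERBB receptors, rose by 1.28 (SE 0.13, limma adjusted p = 0.000495) by its brightest probe set and by 0.45 as the mean of 4. GRB10, an inhibitor of INSR and IGF1R, rose by 1.10 and PTPRF, a receptor phosphatase, by 0.58. RNF41, a ubiquitin ligase that directs ERBB3 for degradation, rose by 0.60 (SE 0.11) with all 3 of its probe sets called. LRIG3 (-0.88), SOCS5 (-0.77), SOCS4 (-0.70) and the ubiquitin ligase NEDD4 (-0.65) fell. LRIG3 read 6.39, 7.22 and 6.96 in siPCARNEQ, with arrays 1 and 3 below the array median, which limits the size of its fall. NEDD4 passed at gene level only, as its 1 probe set did not pass over probe sets, and its siPCARNEQ array 1 (6.79) lay below the array median.

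**Figure D4:**
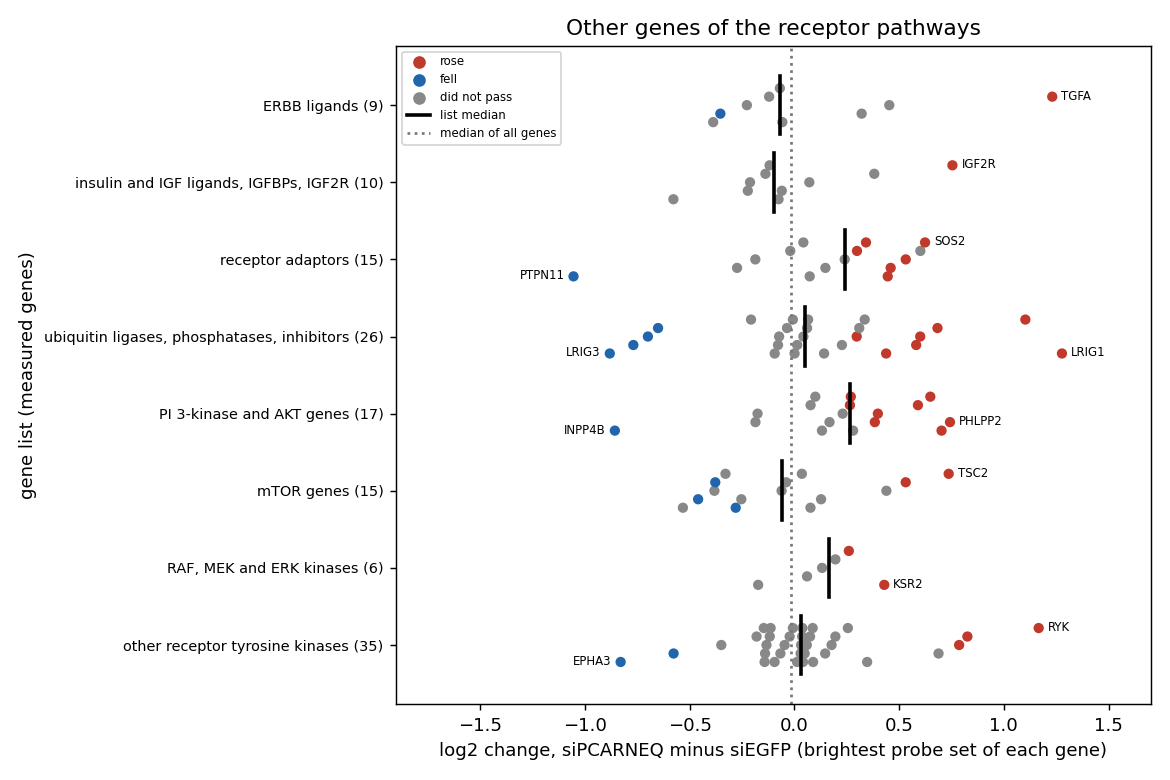
Log2 change (horizontal axis) of the brightest probe set of each measured gene on the 8 pathway lists, with called rises in red, called falls in blue and the list median as a bar. Calls run both ways in 6 of the 8 lists, with TGFA at 1.23, LRIG1 at 1.28 and PTPN11 at -1.05.

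Of 17 phosphoinositide 3-kinase and AKT genes, 8 rose and 1 fell (52.9% called, against 27.5% of all genes), with a median of 0.27. All 17 lay above the array median on all 6 arrays, so 27.5% is not the share of equally bright genes. PHLPP2, a phosphatase that acts on AKT, rose by 0.74 (SE 0.08, limma adjusted p = 0.000673), the catalytic subunits PIK3CB and PIK3CD by 0.70 and 0.38, and the inositol phosphatase INPPL1 by 0.40. INPP4B, an inositol phosphatase that limits AKT signalling, fell by 0.86 (SE 0.14, limma adjusted p = 0.00418). Of 15 mTOR genes, 2 rose and 3 fell (33.3% called): the inhibitors TSC2 and DEPTOR rose by 0.74 and 0.53, while the kinase MTOR, its activator RHEB and the translation repressor EIF4EBP2 had changes of -0.46, -0.38 and -0.28. Among the 9 probe sets of RHEB, 3 fell and 1 rose. Of 6 RAF, MEK and ERK kinases, 2 rose, KSR2 by 0.43 and MAP2K1 by 0.26, and 0 fell (0 at an unadjusted p below 0.05 in limma), with 33.3% called. The 1 probe set of MAP2K1 did not pass over probe sets. Of 35 other receptor tyrosine kinases, 3 rose and 2 fell (14.3% called): RYK (1.17), ROR1 (0.83) and MERTK (0.79) rose, and the ephrin receptors EPHA3 (-0.83) and EPHA7 (-0.58) fell.

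Of these 33 named pathway genes, 11 kept their call under every setting that tested them: TGFA, PTPN11, LRIG1, GRB10, SOCS4, SOCS5, PIK3CB, PHLPP2, INPP4B, RYK and EPHA7. The calls of NRG4, EIF4EBP2, MAP2K1, NEDD4, KSR2, GRB2 and LRIG3 were lost without siEGFP array 2 (adjusted p from 0.0563 to 0.123) and without siEGFP array 3 (0.0649 to 0.143), and some of them without another array. As the mean of their probe sets, PIK3CD, DEPTOR, MTOR and KSR2 did not pass (0.13, 0.21, -0.21 and 0.19). Without probe sets whose names end in _s_at or _x_at, which can match several transcripts, ROR1 had a change of -0.20, and TSC2, MERTK, EPHA3 and PTPRF did not pass (0.06, 0.02, -0.05 and 0.37). LRIG1, SOCS5 and RYK had no probe set left under this setting. They were tested under 15 settings, against 16 for TGFA, so their kept calls did not face it.

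The genes with the profile most like the 2 members of smallest p at gene level, by the brightest probe set, were found by Pearson correlation over the 6 arrays, among 12492 genes with a mean above the array median. For IRS2 these were NVL (r = 0.999), ATP9A (r = 0.998) and FIGNL1 (r = 0.998), and for ERBB2 GNAQ (r = 0.999), ELMO2 (r = 0.999) and TEF (r = 0.999). The arrays fall into 2 groups, and 1490 genes had r above 0.9 with IRS2 and 2212 with ERBB2, so the order at the top is a description only.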

How the data were processed

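RNA of 6 LNCaP samples was hybridised to single-colour Affymetrix arrays. The authors deposited 1 intensity per probe set and array, not on a log scale, made with RMA, per the submitters' processing notes. Once sorted, the log2 values of any array stayed within 0.00494 of the others, so the arrays shared 1 distribution and differences in total RNA are out of reach. Software version, probe definitions and genome build: not given in the sources used here.

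The deposited intensity, from 7.35 to 42200, was put on the log2 scale without an offset. After leaving out 62 control probe sets, 54613 were tested, 41091 annotated to 1 gene, 1801 to several and 11721 to none listed. Gene symbols were matched to RefSeq by gene identifier, with 54 probe sets unmatched and 0 symbols changed.

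limma 3.58.1 (lmFit, then eBayes, R 4.3.3) tested siPCARNEQ against siEGFP on all 6 arrays, 2-sided, without covariates, with Benjamini-Hochberg adjustment at 0.05. The script was tested on simulated data. A gene was represented by its single-gene probe set of highest mean, and listed genes without one were not analysed here. Named were all member probe sets and, from each list, up to 4 genes per direction with the smallest p. The members, lists and settings were chosen with earlier results of these data known.

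Replicate numbers 1 to 3 occur in both groups. For arrays sharing a number, deviations from the group means correlated at 0.47, 0.30 and 0.34. Each exceeds 0.1, but siPCARNEQ array 2 with siEGFP array 3 gave 0.37 and siPCARNEQ array 3 with siEGFP array 2 gave 0.24, so the numbers mainly set array 1 apart, and no label states a shared batch or day. The results given have no block, and the value with the replicate number as a block is printed where it changes a call. Other settings were this block, leaving out each array, arrays 2 and 3 averaged or alone, dim probe sets left out, an offset of 50, another quantile normalization, centring on brighter probe sets, eBayes with trend and robust options, and other ways to represent a gene. Upstream sequences came from a RefSeq table (GRCh38.p14). Figures were drawn with matplotlib 3.10.9 in Python 3.11.15.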

Additional observations from a re-analysis of the deposited data

How the results depend on the processing

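Member counts changed with how the arrays were used, as did the calls over the whole array. With the replicate number as a block, 4 member genes rose in place of 2 (IGF1R and INSR passed as well) and 19 pathway genes fell in place of 12, and the block ended no member call. The share called over the whole array with the block is not given here. The added calls are therefore not read as particular to the members or the pathway genes. Arrays 2 and 3 alone gave 10 member probe sets that rose and 6 that fell, 4 member genes that rose and 2 that fell, and 20 pathway genes that fell. Over the whole array, this setting called 17104 probe sets and 8229 genes, against 10122 and 5445 in the main fit. Counted as 1 replicate, arrays 2 and 3 left 1 member probe set that rose (INSR 226212_s_at) and 0 that fell (2 at an unadjusted p below 0.05 in limma), 0 member genes that fell (1 unadjusted), and 9 pathway genes that rose and 6 that fell. Over the whole array, 2264 probe sets and 2236 genes were called with this averaging. Leaving out each array gave 3 to 6 member probe sets that rose, 0 to 2 that fell (at least 2 unadjusted), 2 member genes that rose and 0 to 1 that fell, and 20 to 32 pathway genes that rose and 8 to 16 that fell. Without siEGFP array 2 or 3, 5829 and 5870 probe sets passed over the whole array, against 10122 in the main fit. For the other arrays left out no such total is given here, so these ranges are not read as particular to the members. Without _s_at and _x_at probe sets, 0 member genes rose (1 at an unadjusted p below 0.05 in limma), because all ERBB2 and IRS2 probe sets have such names, and ROR1 changed by -0.20. An offset, quantile normalization, centring, the variance options and the filter on dim probe sets left each of these counts within 1.5 times. Probe sets below the array median carry no shown signal above background, which limits ERBB4 and probe sets of ERBB2, ERBB3, EGFR, INSR, IGF1R and IRS1.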
